A study of Mus musculus with 2 samples.

Results

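The microRNA genes Mir126a, Mir221 and Mir222 were measured in mouse hindbrain at embryonic day 15.5. They were chosen by symbol, as the rows of the deposited count tables whose Ensembl identifier carries one of these names in GENCODE M21. These are 3 of the 1973 gene rows, and all 3 were found in both tables. The series holds 1 group of 2 small-RNA libraries, both from strain B6NCrl, with no treatment and no mutant allele in the labels. Replicate 2 was a pool of hindbrains from 62 embryos and replicate 1 a pool from 78, each with both sexes mixed. The only comparison available is therefore that of the 2 pools, and it says nothing on a condition.

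Mir126a carries miR-126, the best known microRNA of endothelial cells. It is made from the transcript of Egfl7, which encodes a protein that endothelial cells secrete, and it dampens Spred1 and Pik3r2, inhibitors of signalling by vascular endothelial growth factor. Mice that lack it have leaky, fragile vessels. Mir221 and Mir222 are neighbours that act on overlapping targets, among them the receptor Kit and the cell cycle inhibitor Cdkn1b. They are present in endothelial cells, and also in smooth muscle and many dividing cells, so they mark the endothelium less cleanly than miR-126. In the embryonic hindbrain, vessels grow in from a plexus around the neural tube.

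The mature arms are shown because they separate the genes into groups by seed, the stretch from base 2 to base 8 that pairs with targets. The sequences are from RefSeq (GRCm38.p6), with the seed in capitals. RefSeq held no entry for the opposite arm of Mir126a or of Mir222, so those arms are not shown. Their absence here does not mean that they gave no reads.
miR-126a-3p: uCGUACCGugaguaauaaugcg
miR-221-3p: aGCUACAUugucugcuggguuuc
miR-222-3p: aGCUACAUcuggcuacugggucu
miR-221-5p: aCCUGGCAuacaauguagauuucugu

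The 3p arms of Mir221 and Mir222 have the same seed. Their first 8 bases are identical, and 11 of 23 positions match over the whole arm, counted from the 5′ end without gaps. Among 1738 mature microRNAs in the RefSeq table, miR-1928 is the only other one with this seed, and its gene Mir1928 had 0 reads in both libraries. The seeds of miR-126a-3p and miR-221-5p occur in no other mature microRNA of that table.

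The hairpins are shown because the deposited counts cover the whole hairpin gene and do not separate its arms. The arms given above are in capitals, and the opposite arms of Mir126a and Mir222, which had no RefSeq entry, are not marked.
Mir126a hairpin: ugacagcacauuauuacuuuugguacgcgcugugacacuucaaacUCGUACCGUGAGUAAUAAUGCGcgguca
Mir221 hairpin: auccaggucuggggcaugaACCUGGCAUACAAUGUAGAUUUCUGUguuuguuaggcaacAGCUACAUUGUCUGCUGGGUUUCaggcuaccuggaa
Mir222 hairpin: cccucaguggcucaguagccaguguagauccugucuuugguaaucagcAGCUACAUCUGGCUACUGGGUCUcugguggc

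Mir126a (ENSMUSG00000065540.1) is 73 nt long and lies on the plus strand of chromosome 2 from 26591357 to 26591429 (GRCm38, the build also called mm10). In GENCODE M21 it lies in an intron of 8 Egfl7 transcripts and overlaps an exon of 1 further Egfl7 transcript, outside any coding or untranslated segment. It also lies in an intron of Gm20532, a gene that overlaps Egfl7 on the same strand. On the minus strand the annotation places Mir126b, whose 58 nt hairpin lies wholly opposite Mir126a. No row of the deposited counts carries the symbol Mir126b, so it could not be analysed here.

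Mir221 (ENSMUSG00000065422.1) is 95 nt long, on the minus strand of chromosome X from 19146294 to 19146388. Mir222 (ENSMUSG00000065471.1) is 79 nt long, on the same strand from 19146893 to 19146971. A gap of 504 bases separates the hairpins, and no other M21 gene overlaps either of them. The nearest annotated gene, the noncoding Gm14636 on the same strand, lies 10010 bases away.

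These hairpins share no long exact stretch with another annotated microRNA gene. The longest exact stretch that each hairpin shares with any microRNA gene elsewhere in the annotation, on either strand, was 12 nt for Mir126a, 13 nt for Mir221 and 12 nt for Mir222. The hairpins of Mir221 and Mir222 share 9 nt with each other. A copy that differs at scattered bases would not be seen by this measure. The deposited tables list apart any read that was placed at more than 1 locus. Such reads were 34.2% of all reads in replicate 2 and 35.4% in replicate 1. The genome outside these annotated genes was not searched.

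Depth was similar in both libraries. Replicate 2 had 4839647 reads on the strand of the annotated genes and replicate 1 had 3937840, and each count was divided by the total of its library to give counts on a common scale, written CPM. For a gene with 0 reads the limit is 3 reads, which corresponds to 0.62 CPM in replicate 2 and to 0.762 CPM in replicate 1. Reads carry no molecular identifiers here, so all intervals and floors below cover counting error only. Of 10 neural markers for the tissue label, 9 were found, led by Mir137 at 8360 ± 637 CPM (SD, n = 2). Here and below, found means that the symbol has a row, with or without reads, so the count of symbols found does not check the tissue. The 3 Mir124a genes and Mir9-2, also neural, had 6 to 21 reads per library. Each shares at least 32 nt with another microRNA gene, so their reads can be placed at several loci.

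By reads placed at 1 locus, Mir126a was one of the most abundant microRNA genes of the hindbrain, while Mir221 and Mir222 were detected at low levels. Mir126a had 109378 reads in replicate 2 and 101210 in replicate 1. That is 22600 CPM (95% exact interval 22468 to 22733) in replicate 2 and 25702 CPM (25546 to 25859) in replicate 1, with a mean of 24151 ± 2193 CPM (SD, n = 2). It ranked at place 10 in replicate 2 and at place 9 in replicate 1 among the 1973 genes. All ranks here leave out reads placed at several loci, 34.2% of all reads in replicate 2 and 35.4% in replicate 1. Genes with close copies could therefore stand higher than shown. The tissue was sequenced in bulk, so fewer cells of a type and less RNA per cell cannot be told apart for any of these levels.

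Mir221 had 908 reads in replicate 2 and 657 in replicate 1. Its level was 188 CPM (176 to 200.2) in replicate 2 and 167 CPM (154 to 180.1) in replicate 1, with a mean of 177 ± 14.7 CPM (SD, n = 2). Its rank was 176 in replicate 2 and 183 in replicate 1.

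Mir222 had 502 reads in replicate 2 and 366 in replicate 1. Its level was 104 CPM (94.9 to 113) in replicate 2 and 92.9 CPM (83.7 to 103) in replicate 1, with a mean of 98.3 ± 7.62 CPM (SD, n = 2). It ranked at place 208 in replicate 2 and at place 213 in replicate 1.

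**Figure D1:**
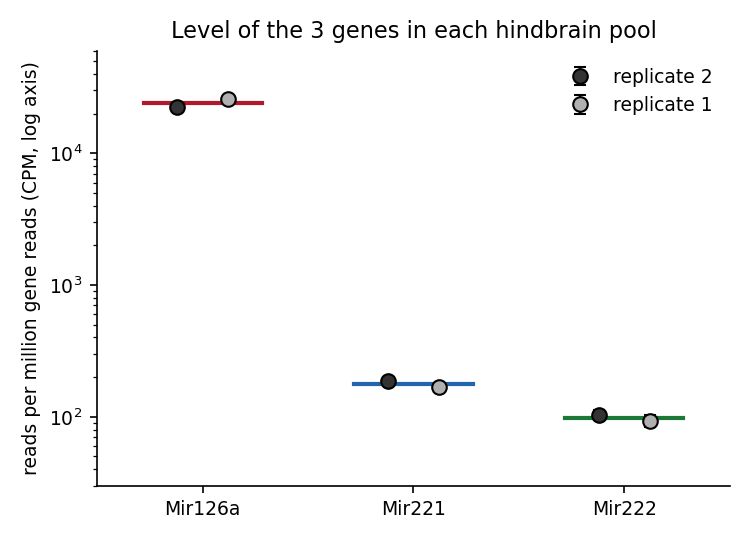
Level of Mir126a, Mir221 and Mir222 in CPM on a log axis, with replicate 2 as dark points, replicate 1 as light points, the mean as a coloured line and exact 95% counting intervals, many of them smaller than the points. Mir126a stands at 22600 CPM in replicate 2 and 25702 CPM in replicate 1, far above Mir221 (188 CPM in replicate 2, 167 CPM in replicate 1) and Mir222 (104 CPM in replicate 2, 92.9 CPM in replicate 1).

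The order of the 3 genes was the same in both pools. Mir126a exceeded Mir221 120-fold in replicate 2 (95% exact interval 113 to 129) and 154-fold in replicate 1 (143 to 167). Per length, as CPM per 100 nt of hairpin gene, the levels were 33084 ± 3004 for Mir126a, 187 ± 15.5 for Mir221 and 124 ± 9.65 for Mir222 (SD, n = 2), in the same order. The gaps between the 3 mean levels were larger than the SD of either gene, both in CPM and per length. With 2 libraries an order of genes has no usable test, so these are descriptions. The order is one of reads, since a bias of the library preparation between hairpins would be shared by both libraries.

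Together the 3 genes took 2.29% of gene reads in replicate 2 and 2.60% in replicate 1. Mir126a made up 98.7% of that sum in replicate 2 and 99.0% in replicate 1. Genes with the seed of miR-221-3p, counted over both hairpins and both arms, held 0.0291% in replicate 2 and 0.0260% in replicate 1.

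Genes of like level were named by a rule, as the gene directly above and the gene directly below each member in the order of mean CPM over the 2 libraries. Mir130a, a microRNA with known roles in vessel growth that also lies on chromosome 2, stood just below Mir126a at 23586 ± 813 CPM (SD, n = 2). The pair changed places between the pools: Mir130a had 23011 CPM in replicate 2, above Mir126a, and 24161 CPM in replicate 1, below it. Mir487b stood directly above at 34649 ± 1658 CPM, a gap larger than the SD of either gene. It shares 20 nt with another microRNA gene, so its own level is uncertain.

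Mir221 stood between Mir496a (182 ± 10.7 CPM) and Mir1306 (171 ± 4.90 CPM). Mir222 stood between Mir6540 (98.9 ± 2.76 CPM) and Mir673 (96.5 ± 1.12 CPM; SD, n = 2 for each). These 4 neighbours lay within 1 SD of the member's mean, so the exact places of Mir221 and Mir222 in the order are not fixed by these data.

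All reads of Mir221 and Mir222 lay on the strand of the hairpin. With 0 opposite reads, a share of up to 0.330% in replicate 2 and 0.457% in replicate 1 is allowed for Mir221, and up to 0.598% in replicate 2 and 0.820% in replicate 1 for Mir222. Mir126a had 2 opposite reads in replicate 2, or 0.00183% of its reads (95% exact interval 0.000221 to 0.00660). In replicate 1 it had 7, or 0.00692% (0.00278 to 0.0142). Over all genes 2.09% of gene reads lay on the opposite strand in replicate 2 and 2.22% in replicate 1.

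The 2 pools were then compared to see how far these genes vary between biological replicates. Mir126a was lower in replicate 2 by more than counting error. Mir221 and Mir222, at log2 ratios of 0.15 and 0.14, did not pass the threshold. The test was a two-sided exact binomial test on the counts after TMM scaling, adjusted by Benjamini-Hochberg over 426 genes, those that reached 10 reads in 1 library or both, with a threshold of 0.05. It compares these 2 libraries alone. Of the 426 genes, 35.9% were called in either direction and 20.9% as lower in replicate 2. A call for 1 of the 3 members is no more than this background.

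For Mir126a the log2 ratio of replicate 2 over replicate 1 was -0.20 (95% exact interval -0.21 to -0.19), or 0.869-fold, and the exact binomial test gave an adjusted p of 1.94e-224. At this depth almost any difference passes: of the 11 other genes whose mean CPM lay within 2-fold of that of Mir126a, 10 were called. The median size of their log2 ratio was 0.11, and 2 of the 11 had a larger one than Mir126a. When a biological coefficient of variation of 0.1 was assumed, edgeR's exact test gave Mir126a an adjusted p of 1 and called 1.41% of the 426 genes. A difference of this size was thus not separable from that much spread between pools.

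For Mir221 the log2 ratio was 0.15 (0.01 to 0.30), and the exact binomial test gave a p of 0.0394 before adjustment and 0.0938 after it. With the count minimum at 100 reads, which changes the TMM scaling and the number of genes tested, it passed at 0.18 and an adjusted p of 0.0307. For Mir222 the log2 ratio was 0.14 (-0.06 to 0.34), and the exact binomial test gave 0.299 after adjustment. Differences of up to 1.23-fold for Mir221 and 1.27-fold for Mir222 are inside these intervals.

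**Figure D2:**
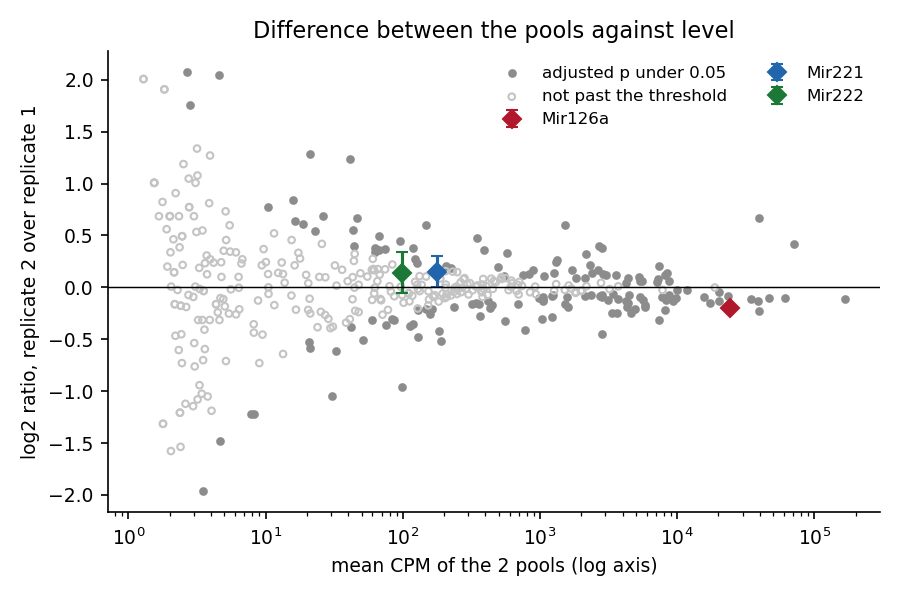
Log2 ratio of replicate 2 over replicate 1 against mean CPM (log axis) for the 425 tested genes with reads in both libraries, with the 3 genes as coloured diamonds and their exact 95% intervals. Mir126a lies below 0 at -0.20, and Mir221 at 0.15 and Mir222 at 0.14 lie above it, all inside the band of other genes of like level.

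The log2 ratios of Mir126a and of the Mir221 and Mir222 pair lay on opposite sides of 0. A call for 1 gene and not for another does not show that they differ, so the ratios between members were tested by Fisher's exact test, which needs no scaling of the libraries. The number of Mir126a reads per Mir221 read was 0.782-fold as high in replicate 2 as in replicate 1 (95% interval 0.706 to 0.866), with a p of 4.68e-06 adjusted over 3 pairs. For Mir126a over Mir222 it was 0.788-fold (0.687 to 0.904), with an adjusted p of 0.00077. Both tests cover counting error only, and with 1 library on each side the spread between pools is not in them. None of the 3 members was called by edgeR when a coefficient of variation of 0.1 was assumed.

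The proportion of Mir222 to Mir221 differed between the pools by less than counting error. Mir222 had 0.553 reads per read of Mir221 in replicate 2 (0.495 to 0.617) and 0.557 in replicate 1 (0.489 to 0.634). The ratio in replicate 2 was 0.992-fold that in replicate 1 (0.836 to 1.18), with an adjusted p of 0.932 by Fisher's exact test. A change of the ratio to between 0.836-fold and 1.18-fold could not be detected at this depth.

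This proportion was set beside that of other close neighbours, a comparison chosen after the values were seen. There were 49 other adjacent pairs on 1 strand within 1000 bases of each other with at least 100 reads of each gene in each library. The log2 ratios of Mir221 and Mir222 between the pools differed by 0.01, against a median difference of 0.14 over the 49 pairs. Of these pairs, 2 had a smaller difference. By counting error alone, the ratio of Mir222 to Mir221 in replicate 2 could be 0.836-fold to 1.18-fold that in replicate 1. A difference as large as the median of 0.14 lies inside this interval, so the place of this pair is not fixed by these data. The mean levels of Mir221 and Mir222 differed 1.80-fold, against a median of 6.67-fold over the 49 pairs (1.02 to 401), of which 12 were closer. Pairs of 1 cluster share genes with each other and are not independent, so no test is given.

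Other microRNA genes tied to endothelial cells and vessel growth were taken from a list of 28 symbols, of which 24 were found, and all 24 were tested. The symbols not found were Mir126b, Mir24-1, Mir18a and Mir92a-1. Genes named Mir18 and Mir92-1 are in the tables, at 3018 and 1053 mean CPM. Mir18 was called higher in replicate 2 (log2 ratio 0.12) and Mir92-1 lower (-0.12). Both are outside the shares, places and calls given for the 24. These 24 genes took 20.7% of gene reads in replicate 2 and 17.3% in replicate 1, mostly from Mir10a and Mir10b. The higher share in replicate 2 lies in these 2 genes and not in the rest of the list. Mir10a had 81827 CPM in replicate 2 and 60695 CPM in replicate 1, and Mir10b 48577 CPM and 30176 CPM. Both lie in Hox clusters and act on vessel sprouting in zebrafish. Which cells of the hindbrain gave their reads was not tested. Mir10a stood at 71261 ± 14943 CPM and Mir10b at 39376 ± 13012 CPM (SD, n = 2), the 2 genes of the list above Mir126a. Mir126a stood higher than the other 22, although Mir130a, the third of the list, lay within 1 SD of it.

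Mir221 and Mir222 stood among the lower genes of the list. Above Mir221 were 15 of the 24 genes, down to Mir210, a microRNA induced by low oxygen, at 252 CPM in each library. Below Mir222 were Mir34a, Mir24-2, Mir503, Mir27a, Mir19a, Mir218-1 and Mir19b-1, between 9.00 and 86.6 CPM. A stretch of at least 20 nt is shared with another microRNA gene by 9 of the 24, among them Mir23a, Mir23b, Mir24-2, Mir27a and Mir27b, so their own levels are uncertain. None of the 3 members shares a stretch of that length, but copies with scattered mismatches are not counted here.

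Between the pools, 5 of the 24 listed genes were called higher in replicate 2 and 12 lower, with a median log2 ratio of -0.10, against -0.01 over the genes tested with reads in both libraries. The share called over all 426 genes was 35.9% and that around the level of Mir126a 10 of 11. Mir10b at 0.67 and Mir10a at 0.41 were the highest of those called, and Mir503 at -0.36, Mir27b at -0.32 and Mir322 at -0.32 the lowest. Mir130a, next to Mir126a in level, was at -0.09 (-0.10 to -0.07), a smaller difference in the same direction. Of the 24, edgeR called 0 when a coefficient of variation of 0.1 was assumed, and 6 over all 426 genes. Without adjustment, 2 of the 24 had a p under 0.05 there.

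**Figure D3:**
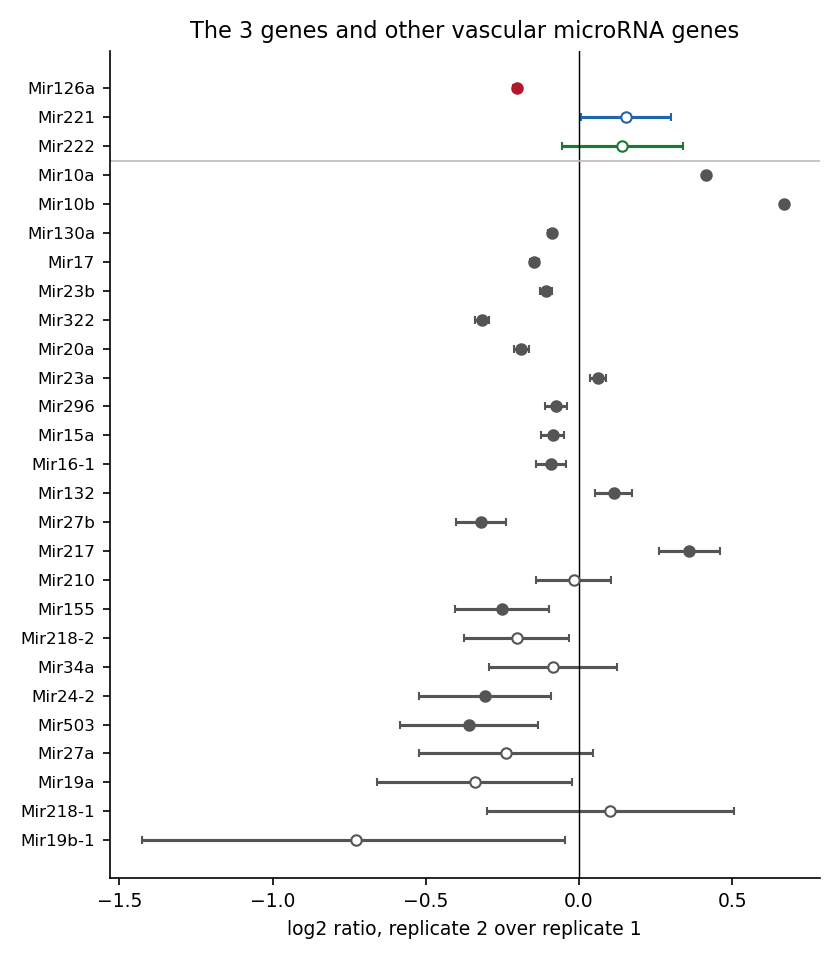
Log2 ratio of replicate 2 over replicate 1 with exact 95% intervals for Mir126a, Mir221 and Mir222 (coloured, on top) and the 24 other vascular genes in order of mean CPM. Filled points passed the adjusted p of 0.05; Mir126a at -0.20 is filled, and Mir221 and Mir222 are not.

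Markers of other cells that vessels and blood bring into a dissected hindbrain were measured beside the members. Of the mural and connective tissue list (pericyte, smooth muscle and fibroblast) 6 of 6 genes were found, with a summed level of 5913 CPM in replicate 2 and 6623 CPM in replicate 1. Mir143, a smooth muscle microRNA, made up most of it at 5857 ± 448 CPM, followed by Mir214 (224 ± 6.62 CPM) and Mir199b (98.9 ± 44.0 CPM; SD, n = 2). The log2 ratio of Mir143 was -0.17 (-0.20 to -0.15) and that of Mir145a 0.01 (-0.21 to 0.23), beside -0.20 for Mir126a. Of 5 tested genes, 3 were called lower in replicate 2 and 0 higher, against 20.9% called lower over all 426 genes. Mir199b and Mir199a-2 were among the 3, and both share at least 27 nt with another copy. When a coefficient of variation of 0.1 was assumed, edgeR called only Mir199b of this list.

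The red blood cell list had 2 of 4 symbols found, with a sum of 125 CPM in replicate 2 and 173 CPM in replicate 1. The symbols Mir486a and Mir486b of this list were not found. A gene with the symbol Mir486 had 34.5 CPM in replicate 2 and 29.5 CPM in replicate 1 and is outside this sum. Its log2 ratio of 0.21 did not pass the threshold. Mir451a, needed for red cell maturation, had 119 ± 19.7 CPM and its neighbour Mir144 30.5 ± 14.7 CPM (SD, n = 2), and both were called lower in replicate 2, at -0.36 and -1.05. By edgeR at a coefficient of variation of 0.1, Mir144 was still called and Mir451a was not. In the leukocyte and microglia list 4 of 5 symbols were found and summed to 377 CPM in replicate 2 and 478 CPM in replicate 1. Mir223 of myeloid cells had 191 ± 45.9 CPM, Mir155, which is also on the vascular list, 159 ± 18.3 CPM and Mir150 of lymphocytes 77.9 ± 7.61 CPM. Of the 3 tested genes, Mir223 at -0.51 and Mir155 at -0.25 were called lower, and edgeR called 0 of the 3 at a coefficient of variation of 0.1. Mir142b had 0 reads.

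In these 3 lists every gene called by the binomial test was lower in replicate 2. Over all 426 genes, 20.9% were called lower and 15.0% higher. Mir150 (-0.22), Mir214 (-0.08) and Mir145a (0.01) did not pass, and neither did Mir486 (0.21), which is outside the lists. Mir199b and Mir144 were also the 2 genes that edgeR called lower over all 426 at a coefficient of variation of 0.1, where Mir126a was not called. Of the 9 tested neural markers 5 were called higher in replicate 2 and 0 lower by the binomial test, against 15.0% called higher over all 426 genes. Of these 5, edgeR called 0 at a coefficient of variation of 0.1, and all but Mir137 share at least 20 nt with another microRNA gene. The neural list is short, and neural microRNA genes outside it went either way by the binomial test. Mir153 (-0.19) and Mir92b (-0.24) were called lower in replicate 2, and Mir138-1 (0.14) higher. The part of the listed genes in the ratios of the members was not tested. The sum of the blood markers over both lists, without Mir486, was 502 CPM in replicate 2 and 652 CPM in replicate 1. That is 2.22% of the level of Mir126a in replicate 2 and 2.54% in replicate 1. Mir126a is the sole marker of the endothelium in these tables that the lists hold, so its level could not be set against another endothelial gene.

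**Figure D4:**
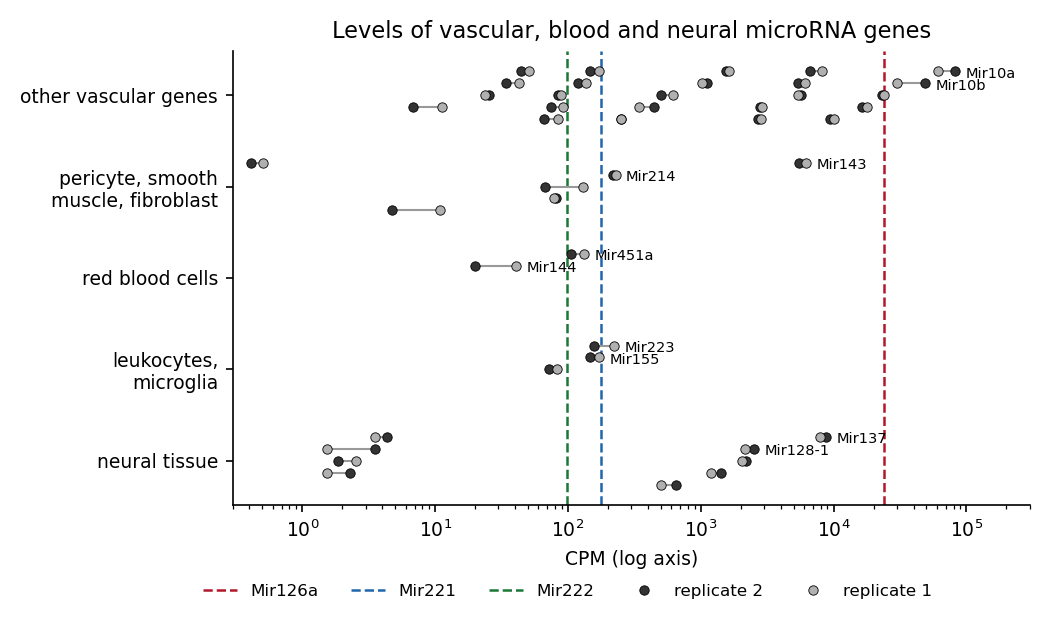
CPM on a log axis of the vascular, mural, red blood cell, leukocyte and neural lists, with replicate 2 as dark and replicate 1 as light points joined per gene, the 2 highest genes of each list named, and the mean of Mir126a, Mir221 and Mir222 as dashed lines. Mir126a lies above every gene of the mural, blood and neural lists in reads placed at 1 locus. A stretch of at least 20 nt is shared with another microRNA gene by 8 of the 9 neural and 3 of the 6 mural genes, so their own levels are uncertain. The mean of Mir221 lies between those of Mir223 and Mir451a, and that of Mir222 below both. Mir142b, with 0 reads, is not drawn.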

How the data were processed

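MicroRNA sequencing was carried out on 2 pools of mouse hindbrain, and the authors deposited 1 table of raw read counts per gene for each, on mm10 with GENCODE M4 per the deposited notes. How reads were trimmed, aligned and counted is not given in the sources used here. A table has 3 columns of counts, for both strands together and for either strand alone. The tables have no header, and of the columns for a single strand, the fuller one was read as that of the gene itself. Library sizes and tests leave out the 4 rows without a gene name, which hold the unmapped reads (15.8% in replicate 2 and 13.7% in replicate 1), those placed at several loci and those outside genes (2.96% in replicate 2 and 2.56% in replicate 1). Whether a microRNA arm gave a read is not recorded.

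Symbols came from GENCODE M21 by identifier, for 1894 of 1973 genes, and sequences from RefSeq. CPM, shares with exact Clopper-Pearson 95% intervals, ratios with exact conditional binomial tests, and Fisher's tests were computed in Python 3.11.15 with scipy 1.17.1. TMM factors and exact tests at a set coefficient of variation came from edgeR 4.0.16 in R 4.3.3, and size factors from DESeq2 1.42.0. A quasi-likelihood test has no residual degrees of freedom with 1 library on each side. The pools are biological replicates per the labels.

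The members and lists were chosen with earlier results of these data known. Genes are named by rule: the members, the gene directly above and below each in mean CPM, the 3 highest genes of each list, and genes that overlap a member. Further listed genes are named after their values were seen, to complete a count or to give its extremes.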

Additional observations from a re-analysis of the deposited data

Results flagged for a closer look

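On the strand opposite to Mir126a lay 7 reads in replicate 1, more than the 3 reads that a count of 0 allows, and 2 reads in replicate 2, which is below that limit. This strand is outside the levels reported above. The annotation places the Mir126b hairpin there, and these reads cannot be assigned to one of its arms from gene counts. They are 0.00692% of the Mir126a reads in replicate 1, against 2.22% of reads on the opposite strand over all genes.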

How the results depend on the processing

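The order Mir126a, Mir221, Mir222 held under every alternative tried. Levels of Mir126a, Mir221 and Mir222 were 11281, 82.7 and 45.9 CPM relative to all reads of a library, and 28983, 213 and 118 CPM without the most abundant gene in the denominator. Per 100 nt of hairpin gene, Mir126a was at 33084 and Mir222 at 124 CPM, Mir126a exceeded Mir221 179-fold against 137-fold in CPM, and Mir221 exceeded Mir222 1.50-fold against 1.80-fold. Leaving out 1 library in turn gave 22600 to 25702 CPM for Mir126a, 167 to 188 for Mir221 and 92.9 to 104 for Mir222, and 0.553 to 0.557 for Mir222 over Mir221. The log2 ratio of Mir126a between the pools stayed between -0.20 and -0.17 over its 7 alternatives and kept its call under 5. With a coefficient of variation of 0.1 or of 0.2 in edgeR's exact test it was still -0.20 and was not called (adjusted p of 1 in each). Mir221 passed under 1 of 7, the minimum of 100 reads (0.18, adjusted p 0.0307 by the exact binomial test; range over the alternatives 0.0307 to 1), and Mir222 under none (0.142 to 1). The cause was not tested. Calls over all genes numbered 153 by the binomial test, but 6 at a coefficient of variation of 0.1 and 0 at 0.2 (12 at an unadjusted p under 0.05). Of the 153, 64 were higher in replicate 2 and 89 lower, and with the minimum at 1 read 71 were higher and 66 lower. No ratio could be computed without 1 of the libraries. No paired analysis was possible because the series holds a single group. With 2 pools, the spread of each gene rests on 1 difference.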

Other observations

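Mir221 and Mir222 lie on chromosome X, and the other 41 tested genes of that chromosome had a median log2 ratio of 0.00 between the pools (replicate 2 over replicate 1). By the exact binomial test 6 of the 41 were called higher and 9 lower, near the 15.0% called higher and 20.9% called lower over all 426 genes. The log2 ratios of Mir221 (0.15) and Mir222 (0.14) lie above that median, and neither passed the threshold.

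Among genes within 2-fold of the mean CPM of Mir221, 21 of 73 (28.8%) were called between the pools. In size, 23 had a larger log2 ratio than the 0.15 of Mir221. Around Mir222 25 of 70 (35.7%) were called and 38 had a larger one than 0.14. Over all 426 genes 35.9% were called.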
